A study of Bos taurus with 12 samples.

Results

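The genes described here encode the membrane proteases matriptase (ST14) and prostasin (PRSS8), the Kunitz inhibitors HAI-1 (SPINT1) and HAI-2 (SPINT2), the plasminogen activators urokinase (PLAU) and tissue plasminogen activator (PLAT), the urokinase receptor (PLAUR), and the serpins protease nexin-1 (SERPINE2) and pigment epithelium-derived factor, PEDF (SERPINF1). They were taken as every probe set whose only gene symbol is one of these names, which gave 10 probe sets for 9 genes, of 24016 probe sets on the array other than controls. Each of the 9 genes had 1 probe set among the 41.8% of probe sets with the highest means, which were tested and stand for 5222 genes in all. Intralobular stroma and mammary epithelium were captured by laser from the same 6 dry cows, Bos taurus, 3 weeks before calving, so that there were 6 stroma and 6 epithelium arrays. Both tissues came from biopsies cut into explants, whose culture medium for 2 h held BrdU as well as insulin and hydrocortisone. The labels give a lactation number of 3 for cow 1, 2 for cow 2 and 1 for cows 3 to 6, whereas the methods call all 6 cows multiparous, and which holds for cows 3 to 6 is not settled. The stromal captures were aimed at fibroblasts and kept away from vessels and visible immune cells, lysates were pooled over slides, more of them for stroma than for epithelium, and the RNA was amplified before hybridization. In such captures, fewer cells of a type and less RNA per cell cannot be told apart.

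Matriptase is a serine protease of the epithelial cell surface that works together with prostasin, and the Kunitz inhibitors HAI-1 and HAI-2 bind and block both enzymes. Urokinase and tissue plasminogen activator turn plasminogen into plasmin, the main protease of bovine milk, and the urokinase receptor holds urokinase at the cell surface. Protease nexin-1 blocks thrombin, urokinase and tissue plasminogen activator outside the cell, whereas PEDF has the fold of a serpin but inhibits no protease and is known as an inhibitor of vessel growth.

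Values are log2 intensities from RMA, a method that corrects, normalizes and summarises the probes of each probe set. The array medians lay between 2.95 and 3.08, and a probe set near or below that level cannot be told from background. Differences are stroma minus epithelium within cow, on the log2 scale. The markers of the captured tissues followed the labels. The mean level of 11 tested fibroblast markers, of 15 listed, ran from 9.14 to 9.85 in stroma and from 3.38 to 5.51 in epithelium, and that of 17 luminal epithelial markers, all tested, from 4.47 to 5.73 in stroma and from 7.84 to 8.57 in epithelium. The caseins CSN2 and CSN3, milk proteins of luminal cells, were bright in both tissues, with medians of 11.6 and 11.3 in stroma and 12.4 and 12.2 in epithelium. The stroma also held higher levels of 6 tested endothelial markers of 13 listed (6.50 to 7.54 in stroma and 2.83 to 3.47 in epithelium), of 3 B and plasma cell markers of 10 (8.57 to 10.7 in stroma and 2.91 to 4.98 in epithelium), of 7 macrophage markers of 15 (5.22 to 6.71 in stroma and 4.04 to 4.80 in epithelium), of 3 adipocyte markers of 8 (5.54 to 7.02 in stroma and 3.31 to 5.01 in epithelium) and of 8 myoepithelial markers of 11 (6.16 to 7.08 in stroma and 4.93 to 5.95 in epithelium). These ranges are means over each list. Each of these lists differed in 1 direction in all 6 cows. The two-sided exact permutation of signs over cows gave p = 0.0312, the lowest possible with 6 cows, and adjusted p = 0.0491 over 11 lists. Singly, 5 of 6 endothelial and 3 of 3 B and plasma cell markers passed an adjusted p of 0.05 in the fit used below. Only 1 of 7 macrophage, 1 of 3 adipocyte and 2 of 8 myoepithelial markers did. The last 2 were MYLK and TAGLN, while the keratins KRT5, KRT14 and KRT17 did not pass. The added polyadenylated control RNAs averaged 7.66 ± 2.99 in stroma and 4.88 ± 1.21 in epithelium (SD, n = 6 each) and were brightest in the stroma of cows 4, 5 and 6, at 9.07, 11.0 and 10.4, so counts are also given without those cows. The part of any of these in the results below was not tested.

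The genes past the threshold lay on both sides. PLAT and SERPINF1 were higher in stroma, and ST14, PRSS8 and SPINT2 were higher in epithelium, whereas SPINT1, PLAU, PLAUR and SERPINE2 did not pass the threshold of an adjusted p of 0.05 (limma, with cow as a block). Thus 2 of the 9 genes were higher in stroma, where 4.48% of the 5222 tested genes were, and 3 of 9 were higher in epithelium, where 4.62% were. All 6 stroma values lay above all 6 epithelium values for 1 of the 9, SERPINF1, against 3.41% of tested genes. All 6 epithelium values lay above all 6 stroma values for 3 of the 9, ST14, PRSS8 and SPINT1, against 2.97% of tested genes. For SPINT1 the highest stroma value, 3.21, and the lowest epithelium value, 3.24, nearly met. SERPINF1 and SPINT1 each reached the tested set through 1 tissue alone. Their means in the other, 2.17 in epithelium and 2.98 in stroma, lay below the lowest tested mean of 3.57. Their place in these counts is therefore not independent of how the tested set was chosen. Without cows 4, 5 and 6 the counts were 1 gene higher in stroma, SERPINF1, and 1 higher in epithelium, PRSS8. With so few cows, calls over all tested probe sets fell from 455 to 219 in stroma and from 477 to 86 in epithelium. The differences of the genes that lost their calls were no smaller. They were -2.51 for ST14, -2.03 for SPINT2 and 2.08 for PLAT, against -2.20, -1.85 and 2.01 with all cows.

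**Figure D1:**
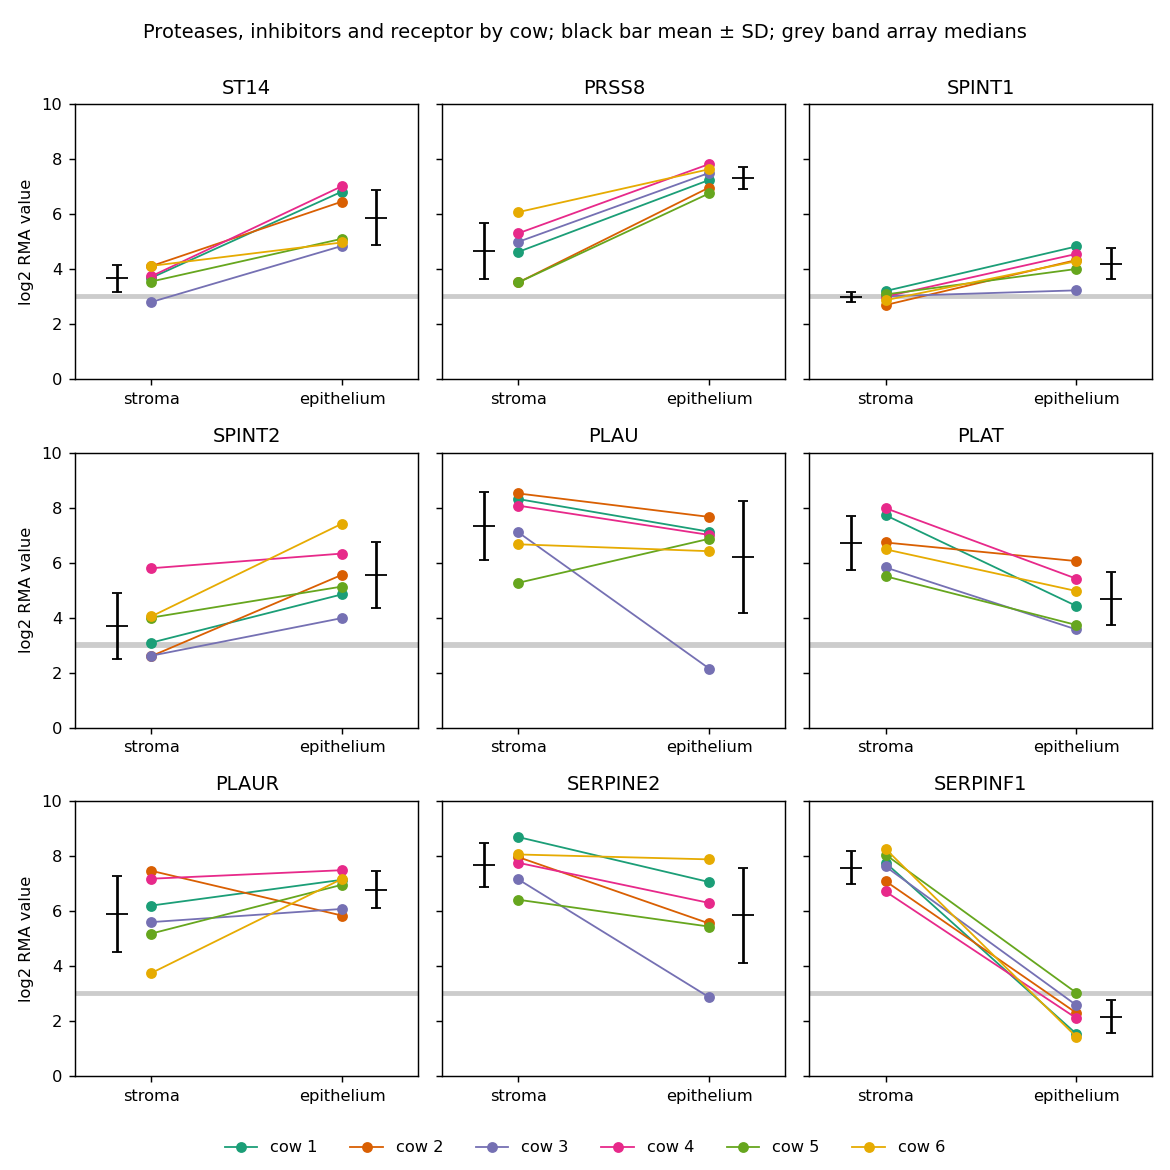
Log2 RMA values (y axis) of the 9 genes in stroma and epithelium, with a line for each of the 6 cows, the mean ± SD of each tissue as a black bar and the range of the array medians as a grey band. The lines of ST14, PRSS8, SPINT1 and SPINT2 climb to epithelium in all 6 cows, those of PLAT, SERPINE2 and SERPINF1 descend in all 6, and those of PLAU and PLAUR cross.

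The membrane proteases were both higher in epithelium. ST14 ran from 2.81 to 4.13 in stroma with a median of 3.72, and from 4.85 to 7.03 in epithelium with a median of 5.79. The 2 ranges did not meet, and the stroma of cow 3, at 2.81, was the only array below its array median. The means were 3.68 ± 0.48 in stroma and 5.88 ± 1.00 in epithelium (SD, n = 6 each). The difference was -2.20 (SE 0.42, 95% interval -3.15 to -1.25, adjusted p = 0.0123), a level 4.60-fold higher in epithelium, and it went the same way in 6 of 6 cows. The stroma lay close to the array medians, so this fold depends on the background in part. Within epithelium ST14 fell into a brighter set, cows 1, 2 and 4 at 6.83, 6.47 and 7.03, and a dimmer one, cows 3, 5 and 6 at 4.85, 5.11 and 4.98, so that the cow differences reached from -3.28 in cow 4 to -0.85 in cow 6. The call was lost only without cows 4, 5 and 6 (adjusted p = 0.0680), among 16 alternatives.

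PRSS8, the membrane-anchored partner of matriptase, ran from 3.53 to 6.08 in stroma with a median of 4.82, and from 6.76 to 7.83 in epithelium with a median of 7.38. Its epithelial values lay close together, while the stroma spread over a wider range, lowest in cows 2 and 5 and highest in cow 6. The means were 4.68 ± 1.01 in stroma and 7.33 ± 0.41 in epithelium (SD, n = 6 each), all 12 arrays lay above their medians, and the ranges of the 2 tissues did not meet. The difference was -2.65 (SE 0.37, 95% interval -3.48 to -1.81, adjusted p = 0.00293), 6.27-fold higher in epithelium in 6 of 6 cows. PRSS8 kept its call in 17 of 17 alternatives, with adjusted p between 0.000959 and 0.0493. Luminal markers moved the same way as both proteases, by -2.85 ± 0.39 (SD, n = 6 cows), and their part in these differences was not tested.

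Of the Kunitz inhibitors, SPINT2 was higher in epithelium, by a call that most alternatives removed, and SPINT1 did not pass. SPINT2 ran from 2.61 to 5.80 in stroma with a median of 3.55, and from 3.99 to 7.42 in epithelium with a median of 5.35. The tissues overlapped: the stroma of cow 4, at 5.80, was brighter than the epithelium of 4 cows, and the stroma of cows 5 and 6, at 4.01 and 4.05, was just above the epithelium of cow 3, at 3.99. With means of 3.70 ± 1.21 in stroma and 5.55 ± 1.20 in epithelium (SD, n = 6 each), the difference was -1.85 (SE 0.46, 95% interval -2.89 to -0.82, adjusted p = 0.0379), 3.61-fold higher in epithelium in 6 of 6 cows. Stroma lay above the array medians on 4 of 6 arrays, so the fold depends on the background. This call was lost in 11 of 16 alternatives, among them leaving out cow 1 (adjusted p = 0.0963), cow 2 (0.106), cow 3 (0.0645), cow 5 (0.0504) or cow 6 (0.0916), the fit without the cow block (0.0921) and the fit over all probe sets (0.0620).

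SPINT1 had 2 probe sets, which differed. The tested one ran from 2.70 to 3.21 in stroma with a median of 3.01, and from 3.24 to 4.83 in epithelium with a median of 4.32. All 6 epithelium values were thus above all 6 stroma values, but the stroma lay at the level of the array medians and above them on 2 of 6 arrays, so that the size of the gap depends on the background. The means were 2.98 ± 0.18 in stroma and 4.21 ± 0.55 in epithelium (SD, n = 6 each). The difference of -1.23 (SE 0.35, 95% interval -2.03 to -0.43) did not pass (adjusted p = 0.0659), though it had 1 direction in 6 of 6 cows (exact sign-flip permutation, two-sided p = 0.0312). It passed without the cow block (adjusted p = 0.0293), with cow as a random block (0.0209) and over all probe sets (0.0481). The second probe set was too dim for the tested set. It ran from 2.01 to 3.31 in stroma with a median of 2.54 and from 2.24 to 3.65 in epithelium with a median of 2.73, above the array medians on 1 stroma and 2 epithelium arrays. In the fit over all probe sets its difference was -0.32 (95% interval -1.10 to 0.45, adjusted p = 0.659), with 3 cows in each direction.

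**Figure D2:**
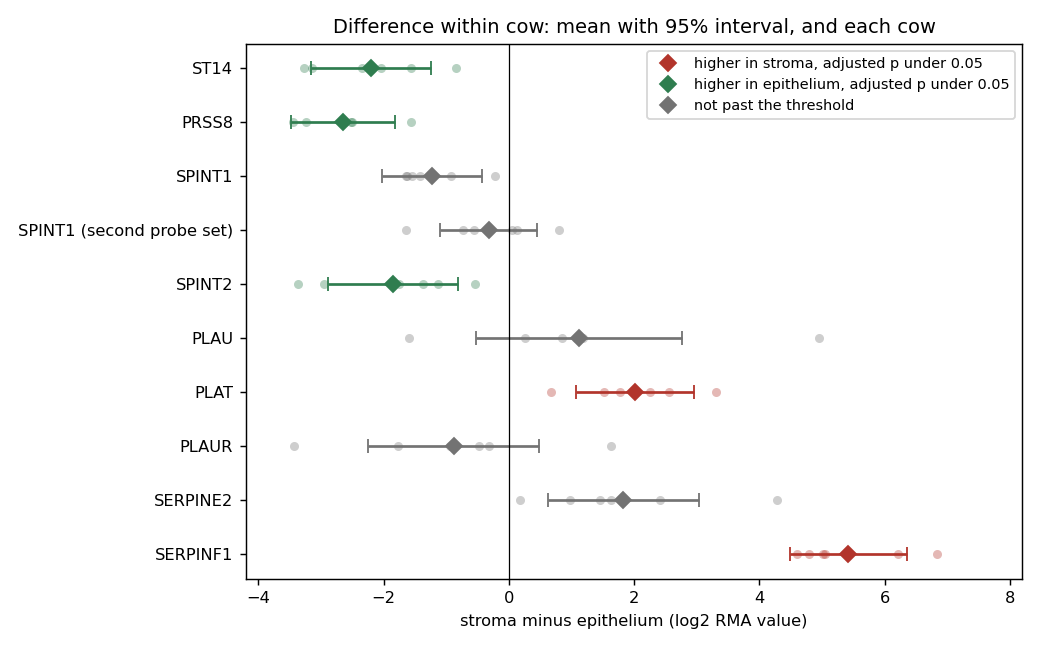
Stroma minus epithelium within cow (x axis, log2 RMA value) for the 10 probe sets: pale points are the 6 cows, diamonds their mean and bars the 95% interval of the fit, coloured by the call. ST14, PRSS8 and SPINT2 stand left of 0, PLAT and SERPINF1 right of it, and the intervals of PLAU (-0.53 to 2.76) and PLAUR (-2.24 to 0.48) span 0.

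The plasminogen activators and their receptor gave 1 call among 3 genes. PLAT ran from 5.51 to 7.99 in stroma with a median of 6.61, and from 3.58 to 6.06 in epithelium with a median of 4.70. The ranges overlapped, since the epithelium of cow 2, at 6.06, was brighter than the stroma of cows 3 and 5, at 5.83 and 5.51. PLAT averaged 6.71 ± 0.99 in stroma and 4.70 ± 0.97 in epithelium (SD, n = 6 each), and the difference was 2.01 (SE 0.41, 95% interval 1.07 to 2.95, adjusted p = 0.0179), 4.04-fold higher in stroma in 6 of 6 cows. Cow 2 had the smallest difference, 0.68, and cow 1 the largest, 3.30. The call was lost without cow 1 (adjusted p = 0.0596), without cow 4 (0.0588), without cows 5 and 6 (0.0650) and without cows 4, 5 and 6 (0.174). Tissue plasminogen activator is a known product of endothelium, and the endothelial markers were higher in stroma by 3.85 ± 0.53 (SD, n = 6 cows). Their part in the PLAT difference was not tested.

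PLAU was bright in both tissues. It ran from 5.27 to 8.52 in stroma with a median of 7.59, and from 2.15 to 7.67 in epithelium with a median of 6.94. In epithelium 5 cows lay between 6.42 and 7.67 and cow 3 alone at 2.15, below its array median. The means were 7.33 ± 1.24 in stroma and 6.21 ± 2.03 in epithelium (SD, n = 6 each), with a difference of 1.12 (SE 0.73, 95% interval -0.53 to 2.76, adjusted p = 0.394) that was positive in 5 of 6 cows. Cow 3 gave 4.95 and cow 5 gave -1.60, and without cow 3 the difference was 0.35 (adjusted p = 0.733). It was 2.01 without cows 5 and 6 (adjusted p = 0.195) and 2.33 without cows 4, 5 and 6 (adjusted p = 0.262). The interval over all 6 cows reaches 2.76 in favour of stroma, so equal levels are not shown.

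PLAUR, the receptor of urokinase, ran from 3.75 to 7.47 in stroma with a median of 5.90, and from 5.84 to 7.49 in epithelium with a median of 7.05. Most of the spread was in stroma, where cow 2 was highest and cow 6 lowest. The means were 5.90 ± 1.37 in stroma and 6.78 ± 0.66 in epithelium (SD, n = 6 each). The difference was -0.88 (SE 0.60, 95% interval -2.24 to 0.48, adjusted p = 0.415), negative in 5 of 6 cows, and it was 1.63 in cow 2 and -3.43 in cow 6. It was -1.39 without cow 2 (adjusted p = 0.196) and -0.37 without cow 6 (adjusted p = 0.739). Without cows 5 and 6 it was -0.02, and without cows 4, 5 and 6 it turned to 0.07 (adjusted p = 0.972).

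Of the serpins, SERPINF1 was higher in stroma, with the largest difference of the 9 genes, and SERPINE2 did not pass. SERPINF1 ran from 6.72 to 8.27 in stroma with a median of 7.70, and from 1.43 to 3.04 in epithelium with a median of 2.21. No value of one tissue came near the other, and all 6 epithelium arrays lay below their array medians. With means of 7.59 ± 0.59 in stroma and 2.17 ± 0.61 in epithelium (SD, n = 6 each), the difference was 5.42 (SE 0.41, 95% interval 4.49 to 6.35, adjusted p = 0.000228) in 6 of 6 cows. This is 42.8-fold on the values as given, but the epithelial level cannot be told from background, and set against the epithelial array medians in place of the probe set's own values the stroma was 24.1-fold brighter. The call was kept in all 15 alternatives in which the probe set was tested, and it left the test in the other 2, which required bright values on at least 8 arrays or a mean among the highest 5000. SERPINF1 thus reached the tested set through its stromal level. Fibroblast markers were also higher in stroma, by 5.21 ± 0.94 (SD, n = 6 cows). The part of fibroblasts in the SERPINF1 difference was not tested.

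SERPINE2 ran from 6.42 to 8.70 in stroma with a median of 7.86, and from 2.87 to 7.88 in epithelium with a median of 5.93. The tissues overlapped: the epithelium of cow 6, at 7.88, was above the stroma of 3 cows, and the epithelium of cow 3 lay far down at 2.87. Protease nexin-1 message averaged 7.68 ± 0.79 in stroma and 5.85 ± 1.73 in epithelium (SD, n = 6 each). The difference was 1.82 (SE 0.53, 95% interval 0.62 to 3.03), a ratio of 3.54, and it did not pass (adjusted p = 0.0683), though it was positive in 6 of 6 cows, from 0.18 in cow 6 to 4.28 in cow 3 (exact sign-flip permutation, two-sided p = 0.0312). Without cow 3 it was 1.33 (adjusted p = 0.121), and without cows 4, 5 and 6 it was 2.78 (adjusted p = 0.102). The median difference over all tested probe sets was -0.18, and once arrays were centred so as to remove it SERPINE2 was higher in stroma by 2.00 and passed (adjusted p = 0.0417).

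**Figure D3:**
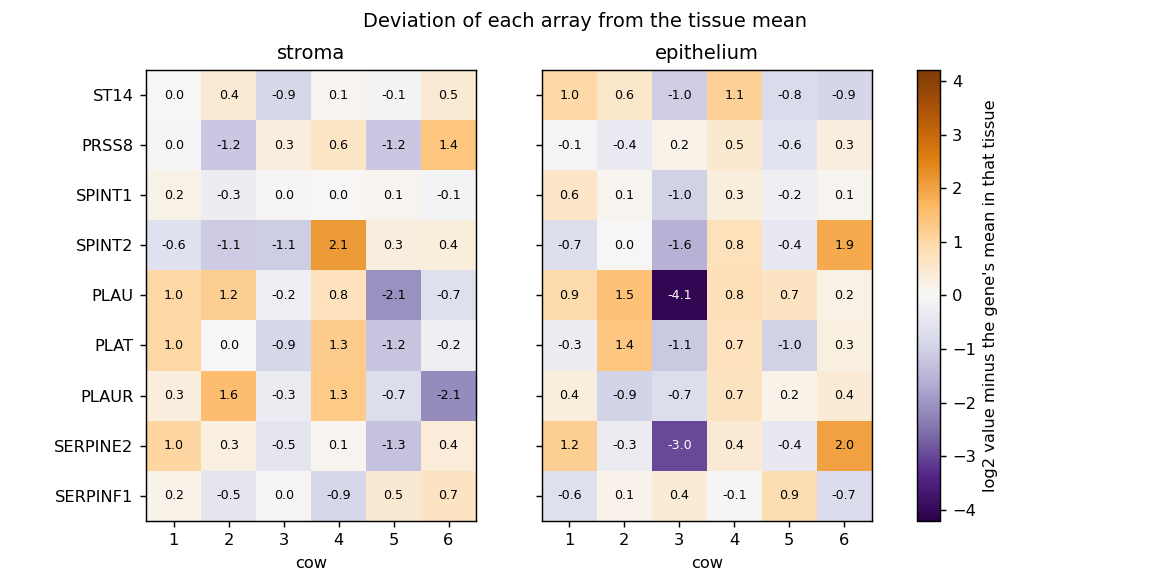
Deviation of each array from the mean of its tissue (colour and printed value, log2 RMA value) for the 9 genes (rows) in the stroma and the epithelium of the 6 cows (columns). The epithelium of cow 3 is dark for PLAU and SERPINE2, at -4.1 and -3.0, while the rows of SPINT1 in stroma and PRSS8 in epithelium are pale.

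The arrays did not deviate evenly. The epithelium of cow 3 had the lowest of the 6 epithelial values for 6 of the 9 genes, against 21.7% of all 5222 tested genes, and the 3 exceptions were PRSS8, PLAUR and SERPINF1. That array also had the brightest control RNAs of the 6 epithelial arrays, at 6.58, and the smallest gap between the 3′ and the 5′ probe sets of GAPDH, at 0.93, where the gap averaged 3.35 ± 0.90 in stroma and 2.67 ± 0.96 in epithelium (SD, n = 6 each). In stroma, cow 2 was lowest for 3 of the 9 genes, against 9.19% of tested genes, and cow 5 for another 3, against 27.4%. These are counts over few genes that share arrays, and no test was made of them.

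The genes whose profiles over the 12 arrays lay nearest to each gene were found from the mean absolute gap between the values after each gene's own mean was taken off, among 5221 other genes. PRSS8 lay nearest to AZGP1 (gap 0.53), a secreted lipid-mobilizing protein, CACNB1 (0.54), a calcium channel subunit, and KRT8 (0.54), a keratin of luminal epithelium. ST14 lay nearest to COQ2, ING2 and LSR, each at 0.45, where the last encodes a protein of tricellular junctions, and the median gap over all genes was 1.26. SPINT1 lay nearest to EZR (0.25), which encodes ezrin of the apical membrane, ZFP36L2 (0.27) and ACTG1 (0.30), and SPINT2 to PDLIM4 (0.54), NHERF1 (0.67), an ezrin-binding scaffold, and USF2 (0.67). On the stromal side, SERPINF1 lay nearest to COL6A1 (0.49), a chain of collagen VI, FGL1 (0.49) and IGFBP4 (0.50), a binding protein of insulin-like growth factors, and the median gap there was 2.82. SERPINE2 lay nearest to TM4SF1 (0.49), PLPP1 (0.63) and PBXIP1 (0.66), and PLAT to SEPTIN10 (0.37), METRNL (0.47) and TMEM184B (0.60). PLAU lay nearest to LEPROTL1 (0.71), PTP4A1 (0.71) and ISCA1 (0.72), and PLAUR to AUP1 (0.36), MDH2 (0.37) and CLK3 (0.46). No gene of the 9 was among the 3 nearest of another. The closest were SPINT1 as the 32nd nearest to ST14 (0.63), SERPINE2 as the 34th nearest to PLAU, PLAT as the 42nd nearest to SERPINE2 (0.84) and SPINT1 as the 43rd nearest to SPINT2. The gaps share the arrays and their depth of signal, and they describe likeness only.

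Around matriptase, 28 further genes were listed (other transmembrane serine proteases, the hepatocyte growth factor route, and epithelial substrates and regulators), of which 12 had a probe set and 6 were tested. None of the 6 was higher in stroma, where 4.48% of all 5222 tested genes were, and 3 were higher in epithelium, where 4.62% were. The median difference was -1.43, against -0.20 over all tested genes. EPCAM, an epithelial adhesion molecule that matriptase cleaves in human cells, ran from 2.33 to 6.83 in stroma and from 9.09 to 10.2 in epithelium, a difference of -4.04 (adjusted p = 0.00176), 16.5-fold higher in epithelium in 6 of 6 cows. The stroma of cow 5, at 2.33, lay below its array median. Without that cow the difference was -3.50 and the call was kept. F2RL1, the protease-activated receptor PAR-2, which matriptase can activate, averaged 2.72 in stroma, about the array medians, and 5.29 in epithelium (difference -2.57, adjusted p = 0.00715). Only 2 of 6 stroma arrays lay above their medians, so F2RL1 reached the tested set through its epithelial level. CLDN7, a claudin bound to EPCAM, had a difference of -1.59 (adjusted p = 0.0249) that was lost in 8 of 16 alternatives, among them leaving out cow 1 (0.0859), cow 2 (0.0753), cow 3 (0.0502) or cow 4 (0.0778). EPCAM and CLDN7 are also on the list of luminal markers. CLDN7 averaged 2.88 in stroma, below the lowest tested mean of 3.57, so like F2RL1 it reached the tested set through its epithelial level. The count of 3 and the median of -1.43 are therefore not independent of how the tested set was chosen. MET, the receptor of hepatocyte growth factor, averaged 3.48 in stroma and 4.75 in epithelium (adjusted p = 0.412, higher in epithelium in 4 of 6 cows). Its ligand HGF, which is activated by matriptase, was outside the tested set, at 2.08 to 3.71 in stroma and 1.75 to 2.59 in epithelium, and its difference in the fit over all probe sets was 0.62 (adjusted p = 0.281).

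Of 31 genes of the plasminogen system, 23 had a probe set and 15 were tested. Of these 2 were higher in stroma, against 4.48% of all tested genes, and none was higher in epithelium, against 4.62%. The other 13 did not pass (median difference -0.06). Among 15 genes, no call in epithelium is close to that share. A2M, the broad inhibitor alpha-2-macroglobulin, averaged 10.2 in stroma and 4.29 in epithelium, a difference of 5.94 (adjusted p = 5.42e-05), 61.4-fold higher in stroma. MRC2, a collagen receptor that associates with the urokinase receptor, averaged 7.50 in stroma and 3.50 in epithelium, 16.0-fold higher in stroma (adjusted p = 0.00921), a fold that depends on the background, since 4 of 6 epithelium arrays lay above their medians. Its epithelial mean lay below the lowest tested mean of 3.57, so MRC2 reached the tested set through its stromal level. Its place in the count of 2 is therefore not independent of how the tested set was chosen. In the other direction the largest difference was that of TNFRSF12A, at -1.50, which did not pass (adjusted p = 0.0613). SERPINF2, the plasmin inhibitor, differed by 0.36 (adjusted p = 0.637). Plasminogen itself (PLG) lay below the array medians, with means of 2.10 in stroma and 2.06 in epithelium, so its direction was not read. LRP1, a receptor that clears complexes of proteases and their inhibitors, was the only gene symbol of no probe set and so could not be read.

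Among 32 other serpins, 10 were tested. Of these 2 were higher in stroma, against 4.48% of all tested genes, and 1 was higher in epithelium, against 4.62%. The other 7 did not pass (median difference -0.09). SERPINH1, a collagen chaperone that inhibits no protease, averaged 8.49 in stroma and 5.65 in epithelium, a difference of 2.84 (adjusted p = 0.0112), 7.17-fold higher in stroma. SERPING1, the inhibitor of complement C1, averaged 9.76 in stroma and 8.31 in epithelium (difference 1.45, adjusted p = 0.0407). Alpha-1-antitrypsin, SERPINA1, averaged 3.99 in stroma and 6.46 in epithelium (difference -2.47, adjusted p = 0.0298), 5.55-fold higher in epithelium, where 4 of 6 stroma arrays lay above their medians, so that this fold too depends on the background. The calls of SERPING1 and SERPINA1 were each lost in 7 of 17 alternatives: SERPING1 without cow 1 (adjusted p = 0.113), cow 2 (0.0899), cow 3 (0.0983), cow 4 (0.0968) or cow 6 (0.0736), and SERPINA1 without cow 1 (0.0914), cow 2 (0.0874), cow 3 (0.0698), cow 4 (0.0524) or cow 5 (0.0574).

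Of 26 other extracellular inhibitors 6 were tested. In stroma 2 were higher, against 4.48% of all tested genes, and the other 4 did not pass (median difference 0.54). The 2 were A2M, described above, and TFPI2, a Kunitz inhibitor of plasmin and other proteases, which ran from 8.21 to 10.2 in stroma and from 1.63 to 7.43 in epithelium, a difference of 4.81 (adjusted p = 0.00398), 28.0-fold higher in stroma. Of the Kunitz inhibitors past the threshold, TFPI2 was thus higher in stroma and SPINT2 in epithelium, where the SPINT2 call was lost in 11 of 16 alternatives. APP, whose longer forms carry a Kunitz domain, had the largest difference in the other direction, -0.71 (adjusted p = 0.309). Of 15 genes of thrombin and its receptors, 4 were tested. THBD, thrombomodulin, averaged 5.39 in stroma and 3.35 in epithelium (difference 2.03, adjusted p = 0.0209), a call that was lost without cow 1 (0.0720), cow 2 (0.0689) or cow 3 (0.0539). Its epithelial mean lay below the lowest tested mean of 3.57, so THBD reached the tested set through its stromal level. Since 4 of 6 epithelium arrays lay above their medians, the size of its difference depends on the background. F2RL1 was higher in epithelium as above, and F3, tissue factor, differed by -0.26 (adjusted p = 0.727). Of 7 receptors and partners of PEDF, 4 were tested. PLXDC2, a membrane receptor of PEDF, averaged 8.86 in stroma and 4.38 in epithelium (difference 4.48, adjusted p = 0.00403), 22.3-fold higher in stroma. For PLXDC2 and TFPI2, 5 of 6 epithelium arrays lay above their medians, and both folds depend on the background in part. PNPLA2, the triglyceride lipase that also binds PEDF, differed by -2.01 (adjusted p = 0.217).

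**Figure D4:**
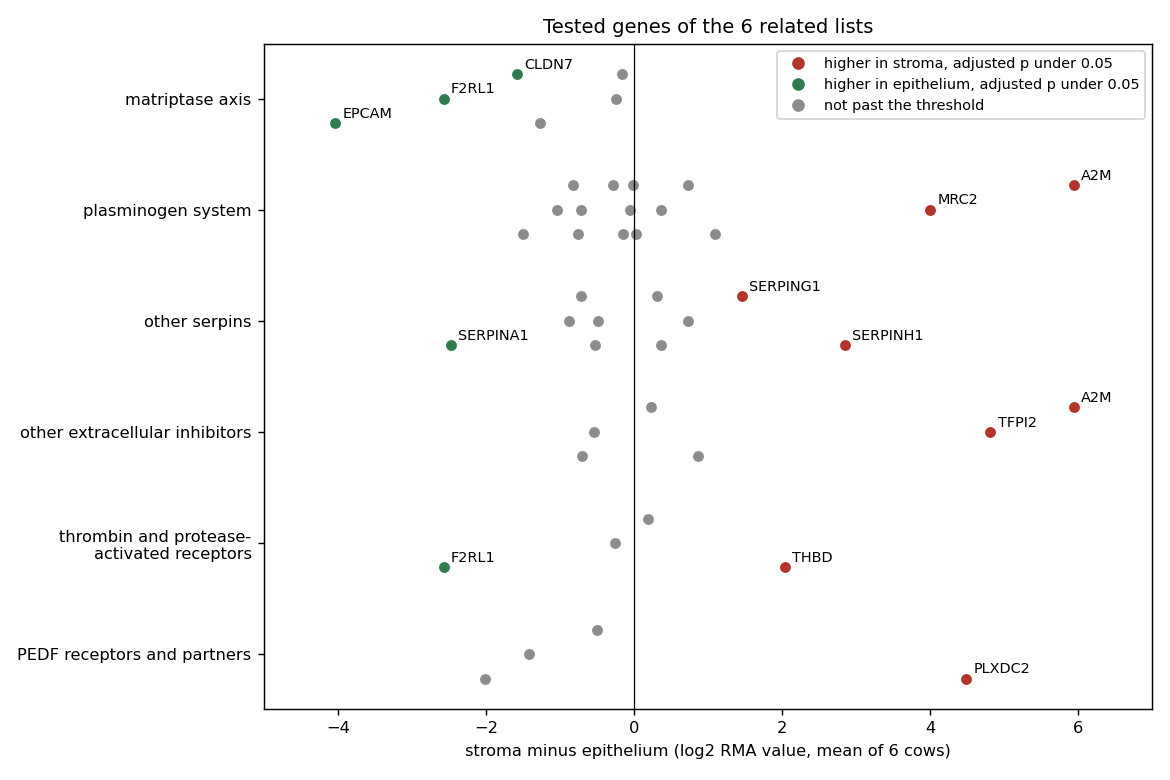
Stroma minus epithelium (x axis, mean log2 RMA difference over 6 cows) for the tested genes of the 6 related lists (rows), coloured by the call, with the genes past the threshold named. A2M and F2RL1 stand in 2 lists each. In the matriptase list the calls are EPCAM, F2RL1 and CLDN7, in epithelium, and in the plasminogen system A2M and MRC2, in stroma. Over all tested genes 4.48% were called in stroma and 4.62% in epithelium. F2RL1 and CLDN7 reached the tested set through epithelium alone, and MRC2 and THBD through stroma alone.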

How the data were processed

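Per the labels and the methods, RNA of laser captures was amplified and hybridized to Affymetrix Bovine GeneChips. The deposited values are log2 expression made by the authors with RMA, including quantile normalization, over 24 arrays, of which the 12 of 6 cows are analysed here. The number of arrays limits the precision, and no detection calls were used here. Of 24128 probe sets 112 were controls, 13292 had 1 gene symbol in the platform annotation, 86 had several and 10638 had none. Gene IDs of 13263 were matched to the RefSeq annotation and 0 symbols changed.

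The study chose the probe sets it tested by detection calls. Here as many, those with the highest means, 41.8% of all, were tested (lowest mean 3.57) with limma 3.58.1 in R 4.3.3, with tissue and cow as terms, and Benjamini-Hochberg adjustment over all of them at a threshold of 0.05. The study fitted tissue alone, which is the fit without the cow block. The labels number both tissues of a cow alike, and the methods take both from the same animal, which sets the pairs. A gene was read from its brightest tested probe set with 1 symbol. Probe sets outside the tested set were read from the same fit over all probe sets. Single measures were compared by exact sign-flip permutation over 6 cows. The fit was tested on simulated data.

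All 9 genes are named with every probe set. From each related list, up to 4 genes with the largest differences past the threshold and up to 1 in the opposite direction are named, along with HGF, MET, F2RL1, PLG, LRP1, EPCAM and SERPINA1. SERPINF2, F3, CSN2, CSN3 and PROS1 were added after their values were seen. The genes and lists were chosen with earlier results of these data known, and some genes stand in more than 1 list. Alternatives left the cow block out, made it random, or used an intensity trend and robust prior, and further ones had other filters, other scalings, and fewer cows. Coordinates and sequences are not given, since the annotation at hand is of another assembly than the array.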

Additional observations from a re-analysis of the deposited data

Results flagged for a closer look

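Within each tissue, and for the differences within cow, the highest and the lowest of the 6 values were set against the others by Dixon's ratio, over all probe sets of the 9 genes and the genes named from the related lists, with CSN2 and CSN3. Of 96 such groups 7 held a value past its 95% critical value for 6 samples, where chance gives about 1 in 20 groups. PLAU in the epithelium of cow 3 stood at 2.15, far below the other 5 epithelial values. EPCAM in the stroma of cow 5 stood at 2.33, and its difference in that cow, -6.76, was the most negative of the 6. F2RL1 in the epithelium of cow 5 stood at 2.85, below the other epithelial arrays. HGF differed by 1.78 in cow 6, more than in any other cow. CSN2 in the epithelium of cow 6 stood at 8.81, and CSN3 in the stroma of cow 6 at 8.02, each the lowest of its tissue.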

How the results depend on the processing

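Over the 9 genes, 148 values were computed under alternatives, of which 127 kept their direction and side of the threshold, 16 lost a call, 4 gained one and 1 reversed. The reversal was PLAUR, at 0.0708 without cows 4, 5 and 6. With all 6 cows, 455 probe sets were higher in stroma and 477 in epithelium, and after centring on the median of the tested probe sets 516 and 361. Without the replicate block these counts were 481 and 462, with 2 of the 9 genes higher in stroma and 3 in epithelium, of which SPINT1 entered and SPINT2 left. Among the brightest 5000 probe sets, 239 were higher in stroma and 274 in epithelium, with 1 and 1 of the 5 genes still tested, and where values had to lie above the array median on at least 8 arrays, 1 of 8 genes was higher in stroma because SERPINF1 was not tested. Leaving out each cow in turn gave 267 (without cow 1) to 404 (without cow 5) probe sets higher in epithelium, 282 without cow 2 and 279 without cow 4, 1 to 2 genes higher in stroma (PLAT lost without cow 1 and without cow 4) and 2 to 3 in epithelium. Without cows 5 and 6, 245 probe sets were higher in epithelium and 1 gene in stroma. Without cows 4, 5 and 6, 219 probe sets were higher in stroma and 86 in epithelium, with 1 gene each, and of the list genes MRC2 (adjusted p = 0.101), TFPI2 (0.0614), PLXDC2 (0.107) and THBD (0.0537) lost their calls, as did CLDN7 (0.137) and SERPING1 (0.145). No gene had more than 1 tested probe set, so the mean over probe sets was not run. Except where the construction shows it, the cause of these changes was not tested.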

Other observations

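PROS1, which encodes protein S of the anticoagulant route, was outside the tested set, with means of 4.06 in stroma and 2.09 in epithelium, and in the fit over all probe sets its difference was 1.98 (limma, adjusted p = 0.0209). It is named after its values were seen.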
